A study of Mus musculus with 12 samples.

Results

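Eph receptors are receptor tyrosine kinases of the cell surface, and ephrins are the membrane-bound ligands that neighbouring cells present to them. The 8 genes described here encode 5 receptors (Ephb2, Ephb3, Ephb4, Epha1 and Epha2) and 3 ephrins (Efna1, Efnb1 and Efnb2) known from intestinal epithelium. They were found by their symbols among the 18929 genes listed in the deposited tables, and all 8 were listed and tested in every comparison. Expression was measured by RNA-Seq of poly(A) RNA in 12 libraries of murine jejunal enteroids, which are closed epithelial structures grown from isolated crypts. Each group held 4 libraries after 5 days of culture in medium with EGF, Noggin and R-spondin 1. The study names the control group villin-Cre control in its results and wild type in its methods. Villin-Cre is a recombinase made in intestinal epithelial cells. The other groups carried it together with floxed Hdac1 (HDAC1-/-) or floxed Hdac2 (HDAC2-/-). The mice were of mixed background (C57BL/6 J, 129SV and CD1), and their age is not given in the sources used here. Their sex is not stated in the study's text. The methods name 1 mouse per genotype as the source of the crypts. The 4 libraries of a group are therefore not known to be 4 mice, p-values measure only the spread between these libraries, and the genotype cannot be told apart from the mouse and the culture grown from it. Hdac1 and Hdac2 encode histone deacetylases, enzymes that remove acetyl groups from histones and other proteins.

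In the intestine, EphB receptors are most abundant at the crypt base, where Wnt signalling maintains stem and progenitor cells, and ephrin-B ligands are most abundant towards the villus. Contact between a receptor-bearing and a ligand-bearing cell usually causes repulsion, and these opposing gradients keep Paneth cells and progenitors at their places along the crypt axis. EphB receptors bind mainly ephrin-B ligands and EphA receptors bind mainly ephrin-A ligands. Signals pass into both cells, forward through the receptor's kinase and reverse through the ligand.

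Library depth ranged from 20693200 to 30658628 counted reads, and each of the 8 genes was counted at least 1011 times in every library, far above a floor of 3 counts. Hdac1 averaged 90.5 CPM (counts relative to library size) in control and 4.23 CPM in Hdac1-deficient enteroids, and Hdac2 averaged 137 CPM in control and 75.9 CPM in Hdac2-deficient enteroids, so Hdac2 transcripts counted over the whole gene remained in the latter. All 10 epithelial markers were listed. Summed fibroblast markers reached at most 7.48 CPM in any library, with Col1a2, Col3a1, Dcn, Lum, Thy1 and Acta2 not among the genes analysed here. Summed endothelial markers reached at most 2.08 CPM, with Cdh5, Kdr and Plvap not among the genes analysed. The immune cell marker sum ranged from 2.06 to 2.68 CPM in control libraries, from 3.14 to 4.44 CPM with Hdac1 deleted and from 4.12 to 4.88 CPM with Hdac2 deleted. Of the jejunum markers, Gata4, Fabp1 and Lct were all listed, and the ileum markers Fabp6 and Slc10a2 together stayed at or below 1.94 CPM, while 4 colon markers together gave 112 to 187 CPM. Libraries of a group differed by more than sampling noise in every pair, with a chi-square per degree of freedom of 1.52 to 8.18.

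The sequences just upstream of the EphB receptor genes and of their ligand Efnb2 are shown because transcripts of these receptors decreased and those of this ligand increased in the comparisons that follow. They were taken from RefSeq on GRCm38.p6 and are printed 5′ to 3′ on the strand of the gene. Capitals mark letters of 5 motifs searched on both strands in the 250 bases before each start: CTTTGA (the core bound by TCF/LEF factors, which carry Wnt signals to genes), GGGCGG (the GC box), CCAAT (the CCAAT box), TATAAA (the TATA box) and CACGTG (an E-box). The Ephb2 window lies at chr4:136836013-136836262 on the minus strand, Ephb3 at chr16:21204545-21204754 on the plus strand, Ephb4 at chr5:137349859-137350108 on the plus strand and Efnb2 at chr8:8661243-8661492 on the minus strand. The Ephb3 sequence ends at base 210 of its window, since the remaining bases lie inside the annotated gene.
Ephb2: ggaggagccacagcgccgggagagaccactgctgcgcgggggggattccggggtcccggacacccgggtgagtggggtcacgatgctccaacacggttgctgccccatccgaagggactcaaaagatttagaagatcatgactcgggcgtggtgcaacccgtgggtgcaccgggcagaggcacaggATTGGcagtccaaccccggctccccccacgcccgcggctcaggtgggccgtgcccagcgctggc
Ephb3: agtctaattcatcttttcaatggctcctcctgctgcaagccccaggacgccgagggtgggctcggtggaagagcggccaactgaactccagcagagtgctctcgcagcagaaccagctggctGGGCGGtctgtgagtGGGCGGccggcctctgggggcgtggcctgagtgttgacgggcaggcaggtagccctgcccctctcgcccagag
Ephb4: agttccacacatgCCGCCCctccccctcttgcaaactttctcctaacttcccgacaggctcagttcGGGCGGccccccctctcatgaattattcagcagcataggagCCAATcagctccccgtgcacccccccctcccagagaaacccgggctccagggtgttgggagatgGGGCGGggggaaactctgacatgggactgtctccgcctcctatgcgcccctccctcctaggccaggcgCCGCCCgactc
Efnb2: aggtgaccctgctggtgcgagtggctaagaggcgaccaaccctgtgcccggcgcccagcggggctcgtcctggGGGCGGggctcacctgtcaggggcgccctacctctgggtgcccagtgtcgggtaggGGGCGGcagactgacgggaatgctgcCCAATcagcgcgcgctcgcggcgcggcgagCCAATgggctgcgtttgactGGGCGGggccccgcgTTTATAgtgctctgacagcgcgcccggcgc
The Ephb2 window held 1 CCAAT motif, read on the opposite strand and starting 64 bases before the start site. The Ephb3 window held 2 GC boxes, 128 and 113 bases before the start. The Ephb4 window held 4 GC boxes and 1 CCAAT motif. The Efnb2 window held 3 GC boxes, 2 CCAAT motifs and, on the opposite strand 30 bases before the start, 1 TATAAA motif. Over the full 250 bases, G and C made up 68.4% for Ephb2, 65.6% for Ephb3, 64.0% for Ephb4 and 72.0% for Efnb2. The windows not printed held 54.4% for Epha1, 55.6% for Epha2, 60.0% for Efnb1 and 64.8% and 64.4% for Efna1. The median was 52.4% over 32851 RefSeq windows. A GC box lay in 7 of the 9 windows of the 8 genes and in 32.7% of all windows, a CCAAT motif in 4 and in 33.8%, a TATAAA motif in 1 and in 12.4%, and the E-box in 0 and in 6.02%. The CTTTGA core was found in 1 window, that of Epha2, 209 bases before its start, and in 13.8% of all windows. A match of letters is a description and not a binding site.

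The EphB receptors decreased in the comparisons of mutant with control enteroids, EphA receptors moved in different directions, and Efna1 and Efnb2 increased. Transcript levels of all 8 genes in every library are shown in the plot of CPM by library.

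**Figure D1:**
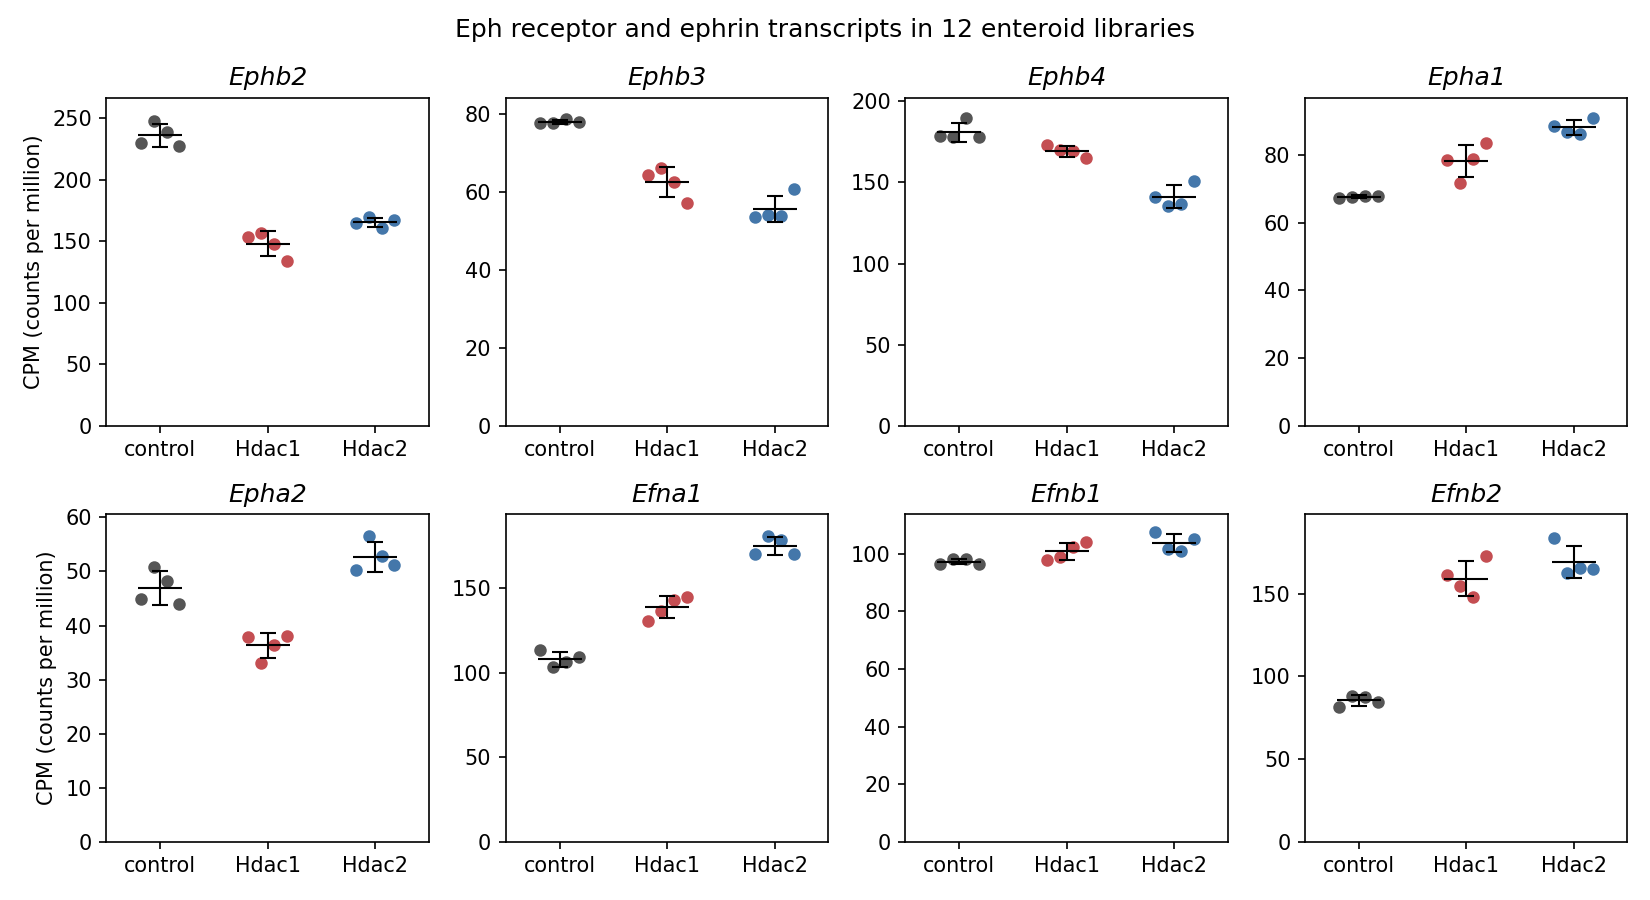
CPM (vertical axis, linear, from 0) of the 8 genes in the 4 control, 4 Hdac1-deficient (Hdac1) and 4 Hdac2-deficient (Hdac2) libraries. Points are libraries in replicate order, horizontal lines are means and error bars are SDs. Ephb2 averaged 236, 148 and 166 CPM and Efnb2 85.5, 159 and 169 CPM in these groups.

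Ephb2 (ENSMUSG00000028664, GRCm38 chr4:136647539-136835988, minus strand) encodes a receptor enriched in crypt base and progenitor cells. Its level in control libraries 1 to 4 was 230.3, 248, 239 and 227 CPM. The level was 154, 157, 148 and 134 CPM in Hdac1-deficient libraries and 165, 170.0, 161 and 167 CPM in Hdac2-deficient libraries. Every mutant library lay below every control library. Relative to control, Ephb2 decreased by a log2 fold change of -0.66 (95% interval -0.75 to -0.57, adjusted p = 3.77e-10) in Hdac1-deficient enteroids and of -0.50 (-0.57 to -0.43, adjusted p = 1.80e-11) in Hdac2-deficient enteroids, by edgeR's quasi-likelihood test with Benjamini-Hochberg adjustment over all tested genes. As these are bulk samples, fewer cells of a type and less RNA per cell cannot be told apart for this or any other gene.

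Ephb3 (ENSMUSG00000005958, chr16:21204755-21223305, plus strand) encodes the receptor known for placing Paneth cells at the crypt base. Its control libraries lay close together, at 77.7, 77.6, 78.8 and 78.0 CPM. Hdac1-deficient libraries gave 64.5, 66.1, 62.5 and 57.1 CPM, and Hdac2-deficient libraries gave 53.6, 54.1, 54.0 and 60.7 CPM. Both mutant groups lay wholly below control. The log2 fold change was -0.31 (95% interval -0.40 to -0.22, adjusted p = 3.21e-06) in Hdac1-deficient and -0.48 (-0.56 to -0.40, adjusted p = 1.29e-09) in Hdac2-deficient enteroids.

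Ephb4 (ENSMUSG00000029710, chr5:137350109-137378669, plus strand), a receptor specific for ephrin-B2 and best known from veins, was also expressed in these epithelial cultures. Control libraries gave 179, 178, 189.7 and 178 CPM, with the third library above the other control libraries. Hdac1-deficient libraries gave 173, 169.7, 169 and 165 CPM, and Hdac2-deficient libraries 141, 136, 137 and 151 CPM. All mutant libraries lay below control, those of the Hdac1-deficient group by a small margin. The decrease was -0.09 on the log2 scale (95% interval -0.15 to -0.02, adjusted p = 0.0268) in Hdac1-deficient enteroids. Its call was lost without control replicate 3 (adjusted p = 0.107), without Hdac1-deficient replicate 3 (0.0520) and without Hdac1-deficient replicate 4 (0.0696). The decrease was -0.35 (-0.42 to -0.28, adjusted p = 2.17e-08) in Hdac2-deficient enteroids, and it passed the test whichever library was left out. Ephb4 shares 33 exon bases with Zan on the opposite strand, which averaged 13.5, 11.2 and 12.2 CPM in the 3 groups, and the strand setting of the counting is not given in the sources used here.

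The 3 EphB receptors together gave 483 to 507 CPM in control libraries, 356 to 393 CPM in Hdac1-deficient libraries and 352 to 379 CPM in Hdac2-deficient libraries, with no overlap between mutant and control libraries. Ephb2 made up 47.7% of this sum on average in control libraries, 39.0% when Hdac1 was deleted and 45.7% when Hdac2 was deleted. Within the sum, Ephb2 had the largest decrease against control in Hdac1-deficient libraries, whereas Ephb2 and Ephb3 had decreases of similar size, with overlapping intervals, in Hdac2-deficient libraries.

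Epha1 (ENSMUSG00000029859, chr6:42358487-42373268, minus strand) encodes an epithelial receptor for ephrin-A1. Control libraries lay close together at 67.3, 67.5, 68.0 and 68.0 CPM. Hdac1-deficient libraries gave 78.7, 71.8, 78.9 and 83.6 CPM, and Hdac2-deficient libraries 88.7, 86.9, 86.1 and 91.1 CPM. All mutant libraries lay above all control libraries. Epha1 increased by 0.22 (95% interval 0.13 to 0.31, adjusted p = 0.000125) in Hdac1-deficient and by 0.39 (0.32 to 0.46, adjusted p = 1.68e-09) in Hdac2-deficient enteroids on the log2 scale. It shares 236 exon bases with Zyx on the opposite strand, whose log2 fold changes were 0.29 (adjusted p = 3.37e-06) and 0.25 (adjusted p = 5.97e-06), and the part of Zyx reads in the Epha1 counts was not tested.

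Epha2 (ENSMUSG00000006445, chr4:141301240-141329384, plus strand), another receptor for ephrin-A1, differed in direction between the mutants. Control libraries gave 44.9, 50.8, 48.2 and 43.9 CPM. Hdac1-deficient libraries gave 37.9, 33.0, 36.3 and 38.0 CPM, all below control, and Hdac2-deficient libraries gave 50.3, 56.5, 52.8 and 51.1 CPM, of which the lowest lay below the highest control library. The log2 fold change was -0.36 (95% interval -0.47 to -0.25, adjusted p = 8.14e-06) in Hdac1-deficient and 0.17 (0.07 to 0.28, adjusted p = 0.00468) in Hdac2-deficient enteroids. The difference itself, tested between the mutants, was -0.54 (-0.65 to -0.43, adjusted p = 4.40e-09).

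Efna1 (ENSMUSG00000027954, chr3:89271733-89281142, minus strand) encodes ephrin-A1, a ligand anchored in the membrane by a lipid. Control libraries gave 113, 103, 106 and 109 CPM. Hdac1-deficient libraries gave 130.3, 137, 143 and 144 CPM, and Hdac2-deficient libraries 170.2, 180.5, 179 and 169.9 CPM. The 3 groups did not overlap, with control lowest and Hdac2-deficient highest. Efna1 increased by 0.37 (95% interval 0.29 to 0.45, adjusted p = 5.39e-08) in Hdac1-deficient and by 0.71 (0.63 to 0.78, adjusted p = 1.57e-13) in Hdac2-deficient enteroids on the log2 scale.

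Efnb2 (ENSMUSG00000001300, chr8:8617434-8661242, minus strand) encodes the transmembrane ligand ephrin-B2 and had the largest change of the 8 genes in each comparison with control. Control libraries gave 81.4, 88.2, 87.7 and 84.7 CPM. Hdac1-deficient libraries gave 161, 154, 148 and 173 CPM, and Hdac2-deficient libraries 183, 163, 166 and 165 CPM. The highest control library lay far below the lowest mutant library. Efnb2 increased 1.87-fold (log2 fold change 0.91, 95% interval 0.81 to 1.00, adjusted p = 7.41e-13) in Hdac1-deficient and 1.99-fold (0.99, 0.91 to 1.08, adjusted p = 1.22e-14) in Hdac2-deficient enteroids. In the latter the estimate lay at the 2-fold limit used by the study, from 0.95 to 1.01 on the log2 scale when single libraries were left out.

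Efnb1 (ENSMUSG00000031217, chrX:99136130-99148991, plus strand), the X-linked gene of ephrin-B1, varied least. Control libraries gave 96.6, 98.1, 98.1 and 96.3 CPM. Hdac1-deficient libraries gave 97.9, 99.0, 102 and 104 CPM, which overlapped control, and Hdac2-deficient libraries gave 108, 102, 101 and 105 CPM, which did not. The log2 fold change was 0.06 (95% interval -0.01 to 0.13, adjusted p = 0.102) in Hdac1-deficient enteroids, which did not pass the test, and 0.10 (0.04 to 0.17, adjusted p = 0.00752) in Hdac2-deficient enteroids. Xist, the RNA that coats the inactive X chromosome, was at 1.41 to 1.72 CPM in control libraries, at 776 to 1079 CPM in those with Hdac1 deleted and at 494 to 677 CPM in those with Hdac2 deleted. Y-linked Ddx3y, Eif2s3y, Kdm5d and Uty were not among the genes analysed here. The median log2 fold change of tested X-linked genes was -0.03 over 431 genes in the Hdac1 comparison and -0.07 over 425 genes in the Hdac2 comparison. As Xist separated control from both mutant groups, whatever underlies this difference cannot be told apart from the genotype. Whether it had a part in the values of Efnb1 or of the other genes was not tested.

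Counted together, 7 of the 8 genes passed the test (an adjusted p no higher than 0.05) in Hdac1-deficient enteroids, 3 higher (Epha1, Efna1 and Efnb2) and 4 lower (Ephb2, Ephb3, Ephb4 and Epha2). Among all 14246 genes tested there, 64.6% passed, 32.7% higher and 31.9% lower. In Hdac2-deficient enteroids all 8 passed, 5 higher (Epha1, Epha2, Efna1, Efnb1 and Efnb2) and 3 lower (the EphB receptors), and 62.3% of 14007 genes passed, 31.4% higher and 30.9% lower. With most genes past the test, counts of this size over 8 genes are not read as a trait of these genes. They were not tested against this background, which was not matched for expression level. Both comparisons used the same 4 control libraries. None of the 8 genes also changed more than 2-fold, a size reached by 10.6% of all genes on loss of Hdac1 and by 8.30% on loss of Hdac2. The median size of the log2 fold change was 0.33 over the 8 genes and 0.25 over all genes in the Hdac1 comparison, and 0.44 against 0.23 in the Hdac2 comparison. The libraries of mutant and control did not overlap for 7 of the 8 genes in the Hdac1 comparison (58.5% of all genes) and for 7 in the Hdac2 comparison (56.1% of all genes).

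**Figure D2:**
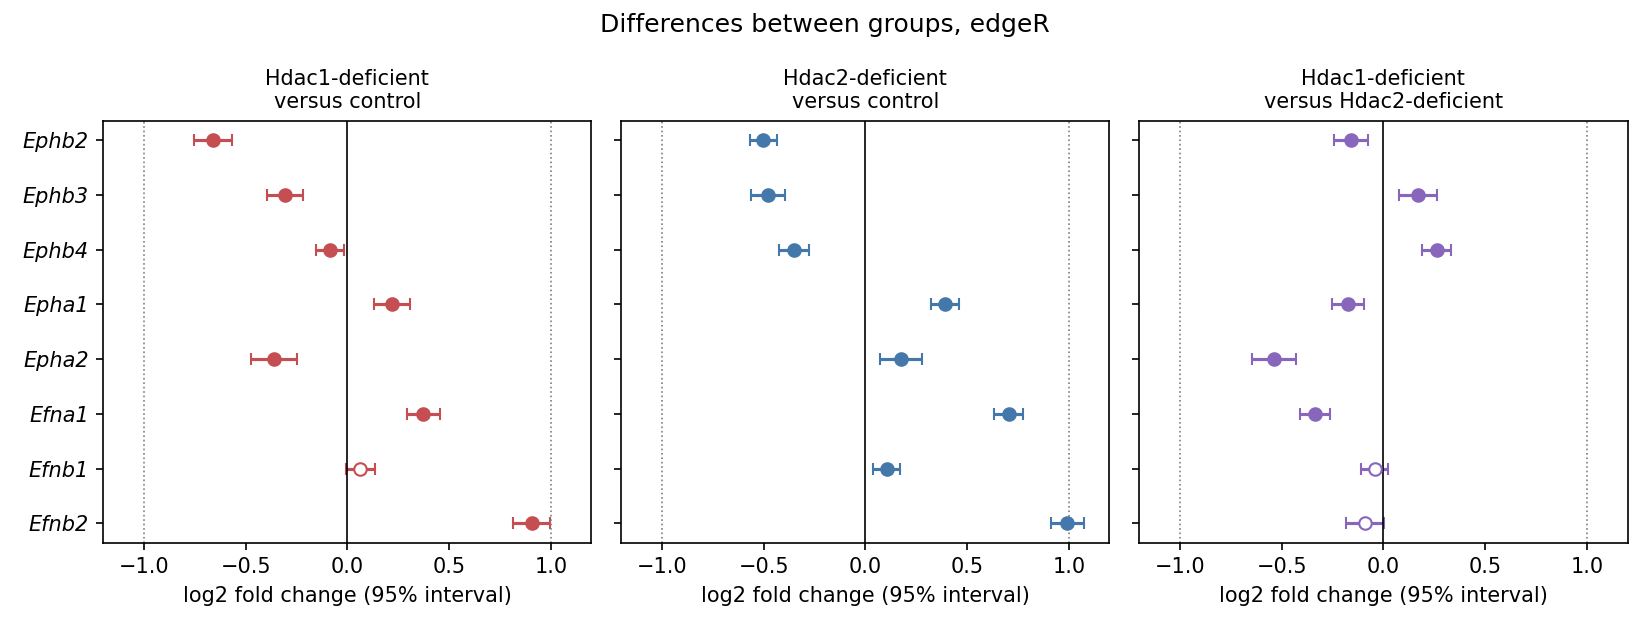
Log2 fold change (horizontal axis) of the 8 genes in the 3 comparisons, with 95% intervals from edgeR. Filled points passed an adjusted p of 0.05, open points did not, and dotted lines mark a 2-fold change. Efnb2 stands farthest to the right in the first and second panels, at 0.91 and 0.99, and Ephb2 farthest to the left, at -0.66 and -0.50.

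The mutants were compared directly to ask which of these genes differed between loss of Hdac1 and loss of Hdac2. In this test of 12 libraries, 45.9% of 14510 genes passed, 22.3% higher and 23.7% lower in Hdac1-deficient enteroids. Of the 8 genes, 2 were higher and 4 lower where Hdac1 was deleted than where Hdac2 was deleted. Ephb3 was higher by 0.17 (95% interval 0.08 to 0.26, adjusted p = 0.00274) and Ephb4 by 0.26 (0.19 to 0.33, adjusted p = 5.22e-07) on the log2 scale. Ephb2 was lower, with a log2 fold change of -0.16 (-0.24 to -0.08, adjusted p = 0.00204), as was Epha1 at -0.17 (-0.25 to -0.09, adjusted p = 0.000569). Efna1 was also lower, at -0.33 (-0.41 to -0.26, adjusted p = 1.94e-08), and Epha2 had the largest difference. None of the 8 genes differed more than 2-fold, which 5.62% of all genes did. The libraries of the mutants did not overlap for 5 genes, Ephb4 above and Ephb2, Epha1, Epha2 and Efna1 below, against 41.8% of all genes. Ephb3 passed the test although 1 Hdac2-deficient library lay within the Hdac1-deficient range.

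For the ephrin-B ligands no difference between the mutants passed the test. Efnb1 differed by -0.04 (95% interval -0.11 to 0.02, adjusted p = 0.300). Efnb2 differed by -0.09 (-0.18 to 0.003, adjusted p = 0.106), and it passed, at -0.13 with an adjusted p of 0.0120, without Hdac1-deficient replicate 4. A p that misses the threshold does not show that the mutants were alike.

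Ratios of receptor to ligand counts within a library combine these changes. They are given without a test, and because they are not corrected for transcript length only their change between groups can be read. The ratio of Ephb2 to Efnb2 averaged 2.76 ± 0.0700 (SD, n = 4) in control libraries, 0.937 ± 0.110 where Hdac1 was deleted and 0.982 ± 0.0635 where Hdac2 was deleted. Control libraries lay between 2.68 and 2.83, and the highest mutant library lay at 1.04. The ratio of Ephb3 to Efnb2 was 0.913, 0.395 and 0.330 in the same order of groups, and that of Ephb4 to Efnb2 was 2.12, 1.07 and 0.836. Against Efnb1 the shift was smaller, from 2.43 in control to 1.47 and 1.60 for Ephb2. The share of Efnb2 in the summed counts of Efnb1 and Efnb2 rose from 46.8% in control to 61.2% and 61.9%. For ephrin-A1, the ratio of Epha2 to Efna1 averaged 0.436, 0.263 and 0.301 in these groups, with both mutant groups below control. That of Epha1 to Efna1 was 0.628, 0.565 and 0.505, with overlap between control and Hdac1-deficient libraries.

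**Figure D3:**
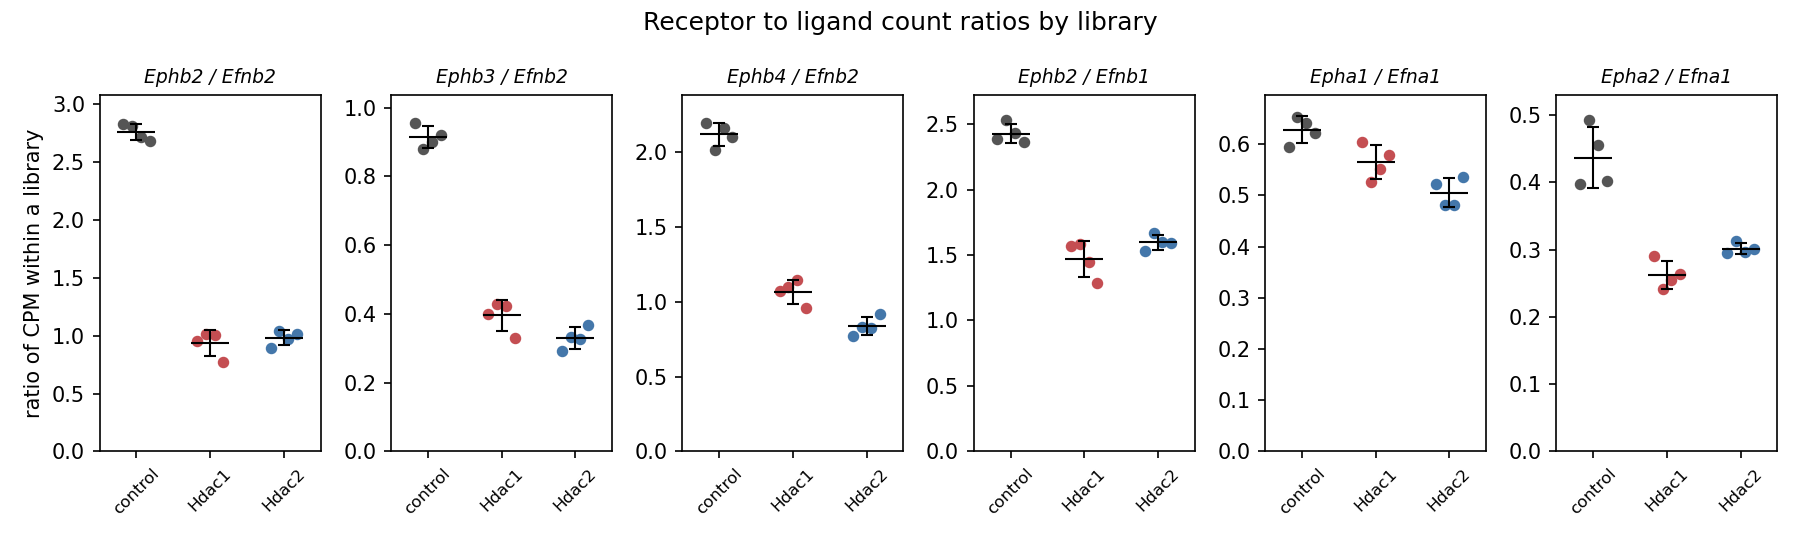
Ratio of receptor CPM to ligand CPM within each library (vertical axis, linear, from 0) for 6 receptor and ligand pairs in control, Hdac1-deficient (Hdac1) and Hdac2-deficient (Hdac2) enteroids. Points are libraries, horizontal lines are means and error bars are SDs. For Ephb2 over Efnb2 the control libraries lie at or above 2.68 and all mutant libraries at or below 1.04.

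The sum of all 8 genes was 900.5 ± 14.9 CPM (SD, n = 4) in control libraries, 893 ± 5.73 CPM with Hdac1 deleted and 951 ± 11.8 CPM with Hdac2 deleted. Levels of different genes were compared per kilobase of merged exons. In control, CPM per kilobase was 59.0 for Efna1, 39.0 for Ephb4, 28.2 for Efnb1, 18.7 for Ephb2, 17.2 for Epha1, 12.5 for Efnb2 and 11.8 for Ephb3, with Epha2 lowest, and no neighbours in this order overlapped. In Hdac1-deficient enteroids Efnb2, at 23.2, stood above Epha1, at 19.9, and Ephb2, at 11.8, stood below it. In Hdac2-deficient enteroids Efnb2 stood at 24.7 and Ephb2 at 13.1, Ephb4 (30.4) and Efnb1 (30.1) overlapped, and Ephb3, at 8.37, was lowest. The order depended on the length used, because the long annotated exons of Ephb2 (12608 bases, of which 2961 are the longest coding sequence) and of Efnb2 (6855 and 1008 bases) lower their values. Per kilobase of coding sequence, control levels were 175 for Efna1, 94.0 for Efnb1, 84.8 for Efnb2, 79.7 for Ephb2 and 60.6 for Ephb4, with overlap between Efnb2 and Ephb2. The same counts were divided by each length, so coding length raises most the values of genes with long untranslated exons.

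Other members of the family averaged at most 28.2 CPM in any group, a value not corrected for length. Of 14 further receptors and ephrins, 10 were listed and 6 had enough counts to test. Epha7, a receptor best known from the nervous system, averaged 3.76 CPM in control libraries. It decreased to 0.411 CPM on loss of Hdac1 (log2 fold change -3.16, adjusted p = 6.74e-11) and to 0.664 CPM on loss of Hdac2 (-2.47, adjusted p = 5.47e-10). It was the 1 tested gene of the family to change more than 2-fold, and the mutants did not pass the test against each other (-0.69, adjusted p = 0.0627). Epha4, a receptor that binds both ephrin classes, was at 6.69, 5.18 and 6.58 CPM in control, Hdac1-deficient and Hdac2-deficient enteroids. It decreased in Hdac1-deficient enteroids (-0.36, adjusted p = 0.00187), had a log2 fold change of -0.01 (adjusted p = 0.942) in Hdac2-deficient enteroids, and differed between the mutants (-0.35, adjusted p = 0.00331).

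Among the other ephrins, Efna3 averaged 21.9 CPM in control libraries, 10.8 CPM with Hdac1 deleted and 20.7 CPM with Hdac2 deleted. It decreased in Hdac1-deficient enteroids (log2 fold change -0.99, adjusted p = 7.60e-11). In Hdac2-deficient enteroids it did not pass the test (-0.07, adjusted p = 0.303), and the difference between the mutants passed (-0.93, adjusted p = 8.29e-12). Efna1, which binds the same receptor class, increased in both mutants. Efna4 decreased by -0.35 (adjusted p = 7.05e-06) in Hdac1-deficient and by -0.26 (adjusted p = 7.58e-05) in Hdac2-deficient enteroids. Efna2, at 1.35 CPM in control, had a log2 fold change of -0.36 (adjusted p = 0.109) and of -0.67 (adjusted p = 0.00742). Efnb3, the remaining transmembrane ligand, rose from 0.985 to 1.59 CPM in control libraries to 1.94 to 3.05 CPM in Hdac1-deficient libraries (0.87, adjusted p = 0.000333). It was at 1.51 CPM in Hdac2-deficient enteroids (0.19, adjusted p = 0.404) and differed between the mutants (0.67, adjusted p = 0.00407).

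A list of 36 proteins that act with Eph receptors and ephrins, such as adaptors, kinases and the protease that sheds ephrins, was drawn up by hand. With Hdac1 deleted 31 were tested, of which 6 rose, 11 fell and 14 did not pass, and the median log2 fold change was -0.08. In Hdac2-deficient enteroids 32 were tested, of which 11 rose, 6 fell and 15 did not pass, with a median of 0.03. The median over all genes was -0.004 in each comparison. Of all genes, 64.6% passed with Hdac1 deleted and 62.3% with Hdac2 deleted, so the partners did not pass more often than genes in general. Vav2, a signalling protein that binds Eph receptors, rose by 0.53 (adjusted p = 1.58e-09) and 0.43 (adjusted p = 2.82e-08). Tiam1, an exchange factor for Rac, fell, with log2 fold changes of -0.64 (adjusted p = 2.20e-09) and -0.53 (adjusted p = 1.53e-09).

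Fyn, a Src-family kinase, was at 3.36 CPM in control and fell as well (-0.34, adjusted p = 0.0266, and -0.71, adjusted p = 0.000616). Src rose by 0.32 (adjusted p = 3.33e-08) and 0.25 (adjusted p = 2.67e-07), and Pick1, a PDZ-domain protein, by 0.29 (adjusted p = 1.32e-05) and 0.24 (adjusted p = 6.66e-05). Adam10, the protease that cleaves ephrins, fell with Hdac1 deleted (-0.28, adjusted p = 4.99e-07), from 229 to 187 CPM, and had a log2 fold change of -0.07 (adjusted p = 0.0763) with Hdac2 deleted. Pak1, a kinase downstream of Rac and Cdc42, rose with Hdac2 deleted (0.25, adjusted p = 2.90e-07) and was at -0.01 (adjusted p = 0.880) with Hdac1 deleted. Vav3 fell with Hdac2 deleted (-0.30, adjusted p = 0.000924) and was at -0.14 (adjusted p = 0.102) with Hdac1 deleted. Grb10, an adaptor of receptor tyrosine kinases, had at most 3 counts in each control library and 20 to 37 counts in Hdac2-deficient libraries. It was at least 9.52-fold higher in the latter (adjusted p = 1.33e-08), computed against 3 counts in the shallowest control library, and at least 2.63-fold higher in Hdac1-deficient libraries, where it was not tested.

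Ephb2 and Ephb3 are known targets of Wnt signalling, so 18 other crypt genes, Wnt targets and stem or progenitor cell genes, were described beside them. This list was drawn up by hand, and not every gene on it is an established Wnt target. Of the 17 tested, 10 fell, 1 rose and 6 did not pass when Hdac1 was deleted, and the median log2 fold change was -0.24. Of all genes tested there, 64.6% passed, 31.9% falling and 32.7% rising. In Hdac2-deficient enteroids 12 fell, 2 rose and 3 did not pass, with a median of -0.34. Of all genes tested there, 62.3% passed, 30.9% falling and 31.4% rising. The median over all genes was -0.004 in each of these comparisons. The genes named next had the 3 largest falls of the list in at least 1 comparison and do not stand for the whole list. Olfm4, a secreted protein of crypt base stem cells, fell from 2702 CPM to 1521 CPM (-0.82, adjusted p = 6.07e-12) and 1147 CPM (-1.23, adjusted p = 3.61e-14). Lgr5, the R-spondin receptor that marks these stem cells, fell with Hdac1 deleted (-0.75, adjusted p = 5.59e-11) and with Hdac2 deleted (-0.69, adjusted p = 1.60e-11). In the same order, the log2 fold changes of the stem cell regulator Ascl2 were -0.80 (adjusted p = 4.10e-08) and -0.44 (adjusted p = 5.24e-08). Those of the surface protein Prom1 were -0.81 (adjusted p = 1.13e-14) and -0.21 (adjusted p = 3.38e-06). The Wnt inhibitor Nkd1, at 2.17 CPM in control, fell as well (-0.60, adjusted p = 0.00417, and -0.89, adjusted p = 0.000240).

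The genes of this crypt list did not all fall. Tnfrsf19, a receptor of the tumour necrosis factor family, rose from 1.53 CPM to 3.73 CPM (1.28, adjusted p = 1.68e-07) and 3.23 CPM (1.07, adjusted p = 1.10e-05), and the transcription factor gene Sp5 rose in Hdac2-deficient enteroids (0.40, adjusted p = 0.000204) and did not pass in Hdac1-deficient ones (0.08, adjusted p = 0.427). The whole crypt list summed to 5351 to 5442 CPM in control libraries, 3327 to 3782 CPM with Hdac1 deleted and 3189 to 3393 CPM with Hdac2 deleted. Olfm4 was the largest part of this falling sum. Enterocyte markers moved the other way. All 10 rose in each comparison with control, against 32.7% of all genes with Hdac1 deleted and 31.4% with Hdac2 deleted. Their median log2 fold changes were 0.84 and 0.63. The sum of these markers was 9339 to 9974 CPM in control libraries, 18401 to 20877 CPM with Hdac1 deleted and 14630 to 16413 CPM with Hdac2 deleted. Of 10 general epithelial markers, 5 rose and 2 fell with Hdac1 deleted, and 6 rose and 0 fell with Hdac2 deleted. The share of all genes that fell was 31.9% and 30.9% in this order. The part of a changed mix of crypt and villus-like cells in the Eph and ephrin values was not tested.

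**Figure D4:**
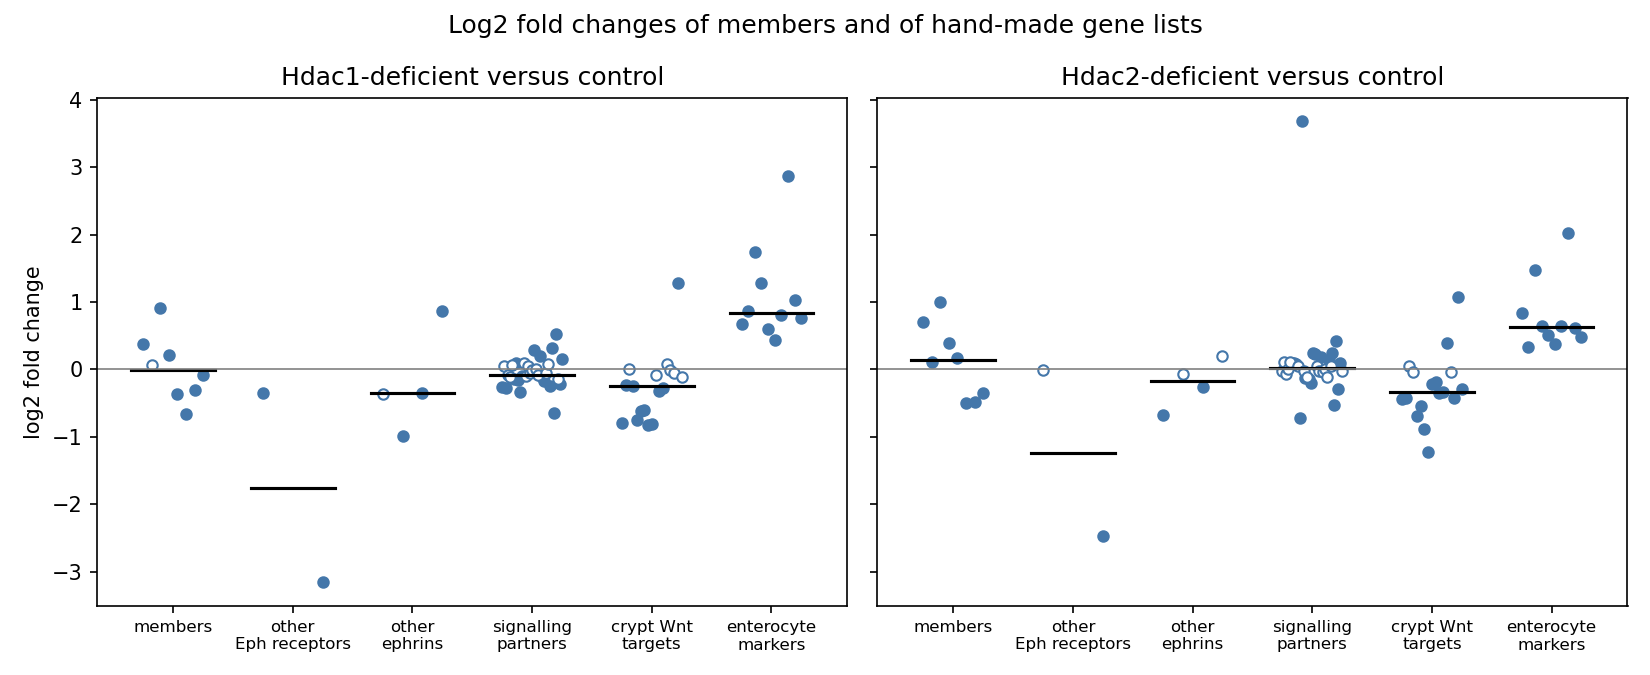
Log2 fold change (vertical axis) of each tested gene against control, in the Hdac1-deficient (left) and Hdac2-deficient (right) comparison, for the 8 genes (members) and 5 lists. Filled points passed an adjusted p of 0.05, open points did not, and bars are medians. The list labelled as crypt Wnt targets also holds other crypt genes. All 10 enterocyte markers lie above 0. The highest partner on the right is Grb10, whose fitted value rests on at most 3 control counts and is no bound.

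The genes whose pattern over the 12 libraries was most like that of Efnb2 and Efna1 were sought among 14509 genes. This pair had the largest single log2 fold changes against control, 0.99 and 0.71, both in Hdac2-deficient enteroids, while in Hdac1-deficient enteroids Ephb2 (-0.66) changed more than Efna1 (0.37). Likeness was the root mean square difference of log2(CPM + 1) values centred on each gene's control mean. For Efnb2 they were Pik3r3, a regulatory subunit of phosphoinositide 3-kinase (difference 0.0463), Gsta4, a glutathione transferase (0.0708), and Cx3cl1, a chemokine (0.0738). Pik3r3 averaged 13.6, 25.4 and 28.0 CPM in control, Hdac1-deficient and Hdac2-deficient enteroids. For Efna1 they were Cdkn2b, an inhibitor of cyclin-dependent kinases (0.0471), Mfsd2a, a lipid transporter (0.0554), and Krt19, an epithelial keratin (0.0577). Cdkn2b averaged 67.1, 90.0 and 107 CPM in the 3 groups, in the same order as Efna1. These likenesses are descriptions over libraries that share group and depth.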

How the data were processed

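RNA-Seq libraries of jejunal enteroids, 4 per group, were grouped by the genotype in their labels. The authors sequenced poly(A) RNA with a stranded kit as paired reads and aligned them to GRCm38 with STAR (version 2.4.0f1 in the submitters' processing notes, which also name bcl2fastq 1.8.4). The counting program and its strand setting are not given in the sources used here. The authors deposited 1 table per mutant with raw counts per gene, listing genes whose counts summed to 10 or more, and the 4 control libraries are identical in both over 17972 shared genes. The deposited tables also hold a normalized score per gene and library, log2 fold changes with log2 CPM, and the authors' p-values. None of these were used.

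Counts were tested with edgeR 4.0.16 (R 4.3.3, limma 3.58.1) by the robust quasi-likelihood F test after TMM normalization and the filterByExpr filter, with Benjamini-Hochberg adjustment over all tested genes. Each mutant was fitted with control (8 libraries), and the mutants were compared in a fit of 12 libraries over genes of both tables. A gene passed the test when its adjusted p did not exceed 0.05 and was called past 2-fold at a log2 fold change above 1 or below -1, the study's limits. Intervals are 95% and come from the same fit. The common biological coefficient of variation was 0.0425, 0.0384 and 0.0394. CPM used TMM factors over 12 libraries. A count of 3 equals 0.0972 to 0.145 CPM, a floor that covers counting error only. Positions and lengths came from the GENCODE annotation on GRCm38, and promoter windows from RefSeq on GRCm38.p6, in which all 8 genes matched. Protein sequences were not used here.

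The 8 genes, the gene lists and the tests were chosen with earlier results of these data known. Named genes were the 8 genes, every tested further family member, Hdac1, Hdac2 and Xist. To these came up to 3 largest rises and falls past the test per mutant among the partners and the crypt list. Also named were the 3 genes most like each of Efnb2 and Efna1, which had the largest single changes in either comparison with control. Zyx and Zan were added for their shared exons. Scripts were tested on simulated counts. Alternatives were library size alone, size factors by relative log expression, DESeq2 1.42.0, other filters, a replicate block, an adjusted p of at most 0.01, X and Y genes left out, other sets of libraries and each library left out in turn. Python 3.11.15, pandas 2.3.3, numpy 2.4.6 and matplotlib 3.10.9 made tables and figures. No library was left out of the reported tests.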

Additional observations from a re-analysis of the deposited data

Results flagged for a closer look

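Among 24 combinations of gene and group, 3 held a library far from the other 3 of its group, with a gap to the nearest library past Dixon's 95% limit. Chance alone gives about 1 such group in 20. For Ephb3, Hdac2-deficient replicate 4 (60.7 CPM) stood above the others at 53.6 to 54.1 CPM, a gap of 0.929 of the range. For Ephb4, control replicate 3 (189.7 CPM) stood above the others at 178 to 179 CPM (0.931), and without it the decrease in Hdac1-deficient enteroids did not pass the test. For Efnb2, Hdac2-deficient replicate 1 (183 CPM) stood above the others at 163 to 166 CPM (0.852).

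The change of Epha2 against control differed between the mutants, at -0.36 with Hdac1 deleted and 0.17 with Hdac2 deleted. The test of the mutants against each other gave -0.54 on the log2 scale, with Hdac1-deficient libraries lower in 4 of 4.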

How the results depend on the processing

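None of the 8 genes changed direction under any alternative. Of 135 values per gene and alternative in the Hdac1 comparison, 131 kept their side of the threshold, all 135 did in the Hdac2 comparison, and 166 of 167 did between the mutants. The exceptions were Ephb4 in Hdac1-deficient enteroids, lost without 3 single libraries and at an adjusted p of at most 0.01 (adjusted p 0.0138 to 0.107 over its 17 alternatives), and Efnb2 between the mutants, gained without 1 library (0.0120 to 0.376 over 21). Genes past the test and 2-fold numbered 1507 in the Hdac1 and 1162 in the Hdac2 comparison, and 2335 and 1792 without a filter on low counts. They numbered 1517 to 1624, 1195 to 1270 and, between the mutants (816 with all libraries), 831 to 874 when single libraries were left out. With the replicate number as a block, 1501, 1158 and 812 genes were called, and no call among the 8 genes changed. No source pairs the numbers, and deviations of same-numbered libraries correlated between -0.139 and 0.150, so they are not shown to pair. Efnb1, being X-linked, has no value with X and Y genes left out, which leaves 7 tested genes. Levels per kilobase moved with the length used, for Ephb2 in control from 18.7 (merged exons) to 21.7 (longest transcript) and 79.7 (coding sequence), and these length alternatives were chosen after seeing the data. Depth was at least 1011 counts per gene and library, so it limits none of the 8 genes but does limit Epha3, Epha5, Ephb6 and Efna5.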

Other observations

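Epha3, Epha5, Ephb6 and Efna5 were listed at too few counts to be tested. Epha3 had 0 to 4 counts and Epha5 had 1 to 4 counts in every library. Ephb6, a receptor without kinase activity, had 0 to 5 counts in control, 1 to 2 counts in Hdac1-deficient and 4 to 9 counts in Hdac2-deficient libraries. The Hdac2-deficient mean was 2.17-fold the CPM of 3 counts in the shallowest Hdac1-deficient library. Such ratios rest on a group mean, single libraries can lie below them, and the counting error of the mean is left out. Efna5, an ephrin-A ligand, had 3 to 7 counts in control, 1 to 8 counts in Hdac1-deficient and 4 to 18 counts in Hdac2-deficient libraries. Among the partners, Ptpn13, a phosphatase with PDZ domains, had 0 to 1 counts in control libraries and 8 to 15 counts with Hdac2 deleted. Its mean there was 3.34-fold the CPM of 3 counts in the shallowest control library, untested.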
